A study of Mus musculus with 10 samples.

Results

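The 10 Fanconi anaemia genes described here, Fanca, Fancb, Fancc, Fancd2, Fance, Fancf, Fancg, Fanci, Fancl and Fancm, are 10 of the 55487 genes in the RNA-seq tables. They were chosen by name, as the rows whose Ensembl gene ID carries one of these symbols in GENCODE vM21, and all 10 were found. The study maps R-loops, which are RNA-DNA hybrids that leave the other DNA strand unpaired, in the mouse embryonic stem cell line E14. It has 10 samples, and the 7 libraries of its R-loop mapping assays were not used here. The 3 RNA-seq replicates are of unperturbed E14 cells grown in serum with LIF and with inhibitors of GSK and of MEK1/2, and their libraries were strand-aware and made from total RNA after removal of ribosomal RNA. With 1 group there was no condition to compare, so genes were compared within libraries and the spread over the 3 replicates was the error. The labels do not say whether the replicates were separate cultures, so this spread may be technical.

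The Fanconi anaemia pathway repairs crosslinks that join the strands of DNA and block replication. FANCM binds the stalled fork and anchors the core complex, a ubiquitin ligase built from a FANCB-FANCL module, a FANCA-FANCG module and a FANCC-FANCE-FANCF module, with FANCL as its catalytic subunit. The core complex places a ubiquitin on FANCD2 and FANCI, which then clamp onto DNA as the ID2 complex, and nucleases, translesion polymerases and homologous recombination finish the repair. FANCM and FANCD2 are also known for limiting R-loops, and inherited loss of the pathway causes bone marrow failure.

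Sequencing depth was 11420425 estimated counts in replicate 1, 6467405 in replicate 2 and 5787357 in replicate 3. The pluripotency markers Pou5f1, Nanog, Sox2, Zfp42 and Esrrb had mean levels from 32.9 TPM (Sox2) to 183 TPM (Nanog), where TPM is abundance per unit of transcript length, with one total for all libraries. Of 7 lineage markers 0 reached a mean of 1 TPM as deposited, with Sox1 highest at 0.733 TPM from 122, 67 and 44 counts. Of 5 fibroblast markers Thy1 alone did, at 2.50 TPM, while Twist2 and Postn had 0 counts in every replicate. Which markers reach 1 TPM depends on the genes included in the TPM total, and the markers were not read on another scale.

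All 10 genes were detected at a mean of at least 1 TPM, which 19.8% of all genes and 44.1% of protein-coding genes reached. Their median log2(TPM + 1) was 3.21, 2.79 and 2.61 in replicates 1, 2 and 3, a mean of 2.87 ± 0.31 (SD, n = 3). The same median over the 9683 protein-coding genes with a mean of at least 1 TPM was 2.72 ± 0.29 (SD, n = 3). As a group the members therefore sat near the middle of expressed protein-coding genes, but singly they ran from 1.19 TPM for Fancf to 17.2 TPM for Fancd2. The highest and the lowest member of a replicate differed by 3.84 ± 0.24 (SD, n = 3) in log2 TPM, a 14.3-fold range. The members' counts summed to 0.0584%, 0.0587% and 0.0585% of the library in replicates 1, 2 and 3.

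**Figure D1:**
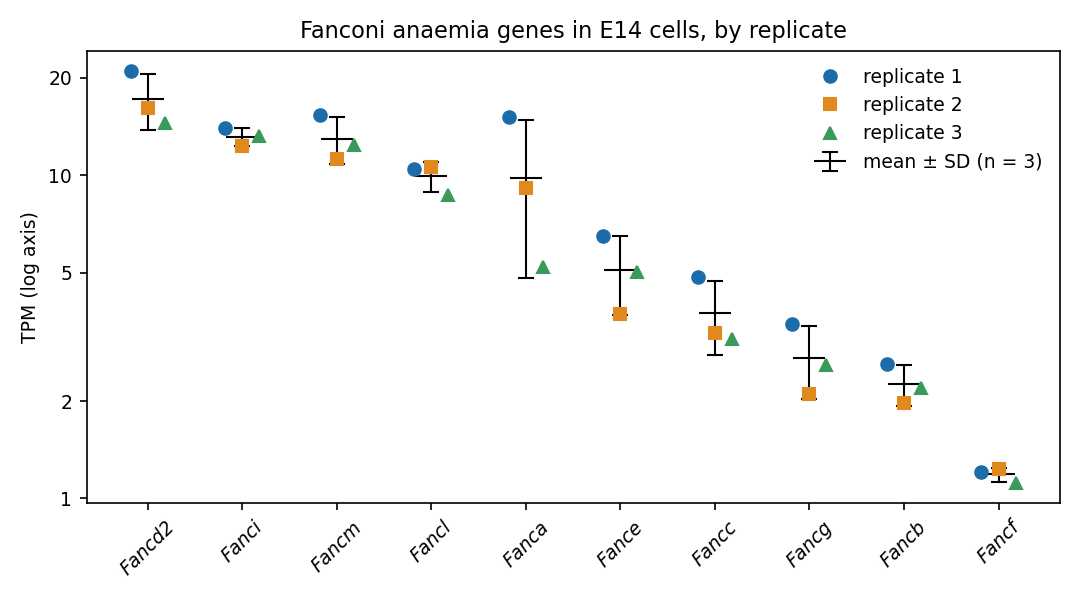
TPM of the 10 genes (log axis) in each replicate (points) with the mean and SD over 3 replicates (bars), ordered by mean. Fancd2 lies highest at 17.2 TPM, Fancf lowest at 1.19 TPM, and Fanca spreads most between replicates in TPM.

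RefSeq promoter windows (GRCm38.p6, 250 bases before to 50 after the start) were found for 9 of the 10 genes, with no entry for Fancd2. The upstream parts of 3 windows are shown, leaving out bases that lie in an annotated exon: that of Fanca, the member with the widest spread between replicates in TPM, that of Fance, the window richest in GC boxes, and the stretch between the starts of Fancb and its divergent neighbour Mospd2. Capitals mark matches, on either strand, to the CCAAT box (CCAAT) and the GC box (GGGCGG). The stretches lie at chr8:123318577-123318826 (minus strand), chr17:28313280-28313518 (plus strand) and chrX:164980376-164980591 (plus strand) and are read 5′ to 3′.
Fanca: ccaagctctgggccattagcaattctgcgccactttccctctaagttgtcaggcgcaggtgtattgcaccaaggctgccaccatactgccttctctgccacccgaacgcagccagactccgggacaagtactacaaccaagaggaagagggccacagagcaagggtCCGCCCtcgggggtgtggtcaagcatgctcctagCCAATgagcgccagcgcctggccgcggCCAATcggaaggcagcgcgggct
Fance: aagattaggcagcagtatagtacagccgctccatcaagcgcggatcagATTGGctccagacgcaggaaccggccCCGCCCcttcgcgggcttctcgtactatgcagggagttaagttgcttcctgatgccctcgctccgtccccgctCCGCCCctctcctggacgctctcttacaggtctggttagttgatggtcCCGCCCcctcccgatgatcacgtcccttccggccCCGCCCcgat
Fancb: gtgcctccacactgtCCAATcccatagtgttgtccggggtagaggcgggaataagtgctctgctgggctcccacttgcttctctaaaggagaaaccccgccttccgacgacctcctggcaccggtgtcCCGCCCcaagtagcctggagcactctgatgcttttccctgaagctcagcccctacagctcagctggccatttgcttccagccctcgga

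CCAAT occurred in 6 of the 9 windows and in 37.4% of all 32851 windows of the same length, and GGGCGG in 6 of 9 against 35.7%. The TATA sequence TATAAA occurred in 0 of 9 against 13.6% of all windows. Of the E2F sequences, TTTCCCGC was in the Fancg window alone (1.07% of all windows) and TTTGGCGC in 0 of 9 (0.514%). In the Fancg window 205 of the 250 upstream bases lie in an exon of that gene, and in the Fanci window 208 lie in exons of Fanci. All 250 lie in exons of another gene for Fancf (Gas2) and Fancm (Gm47870), whose windows are counted for both CCAAT and GGGCGG. The palindromic NRF1 motif (0.971% of all windows) and TTTGAA, the core of the cell cycle homology element (17.9%), were in 0 of 9. The number of CG dinucleotides in a window ran from 3 in Fancl to 26 in Fancm. The median over all windows was 7, and Fancl was the only member below it, with Fancb next at 13. All 250 upstream bases of the Fancl window lie in an exon of Fancl. The start RefSeq gives for Fancl lies 949 bases from the start of the GENCODE gene, and that of Fancc 65533 bases from it. For Fanci the distance is 409 bases and for Fancg 205, so these windows describe 1 of several annotated starts. These matches describe letters in the windows and were not tied to the levels.

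The ID2 pair was highest. Fancd2 (ENSMUSG00000034023, chr6:113531682-113597017, GRCm38), which encodes the subunit whose ubiquitination marks an active pathway, had 20.97, 16.14 and 14.46 TPM in replicates 1, 2 and 3, from 2187, 1282 and 1135 counts. Its partner Fanci (ENSMUSG00000039187, chr7:79391929-79450264) had 14.01, 12.32 and 13.19 TPM from 1372, 787 and 789 counts. Fancd2 was above Fanci in each replicate and the ranges did not overlap. The difference of Fanci minus Fancd2 was -0.37 ± 0.23 (SD, n = 3) in log2 TPM, from -0.58 in replicate 1 to -0.13 in replicate 3. An exact two-sided sign-flip permutation test over 3 replicates gives p = 0.25 here, the smallest it can give, so no difference between genes could pass a threshold and each is described by its values.

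Fancm (ENSMUSG00000055884, chr12:65075603-65132058), the DNA translocase that anchors the core complex, had 15.33, 11.22 and 12.40 TPM. It did not differ from Fanci beyond the spread: Fanci was higher in 2 of 3 replicates, by 0.03 ± 0.14 (SD, n = 3) in log2 TPM. Fancm ranked 2333 among protein-coding genes by mean TPM and Fancd2 ranked 1743, above 75.9% and 82.0% of the expressed ones.

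The 7 core complex genes were lower as a group. The median log2 TPM of the 7 lay below the mean of the ID2 pair by 1.82, 2.11 and 2.15 in replicates 1, 2 and 3, which is -2.03 ± 0.18 (SD, n = 3) for core minus pair or 4.08-fold. In CPM (counts scaled to the library total, with no account of length) it was -3.16 ± 0.03 (SD, n = 3). Of the 7 genes 6 were below both ID2 genes in every replicate, and the exception was Fanca in replicate 1. Within the core complex the means ran from 1.19 TPM for Fancf to 9.92 TPM for Fancl.

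In the FANCB-FANCL module, Fancl (ENSMUSG00000004018, chr11:26386135-26471876), the ligase subunit, had 10.44, 10.62 and 8.69 TPM. Fancb (ENSMUSG00000047757, chrX:164980592-164997272), the X-linked scaffold of the module, had 2.61, 1.97 and 2.19 TPM. Fancl exceeded Fancb by 2.14 ± 0.25 (SD, n = 3) in log2 TPM, 4.41-fold, with no overlap. Faap100, which encodes another protein of the module, was lower still at 1.50 ± 0.27 TPM (SD, n = 3), so the catalytic subunit was the most abundant RNA of its module in each replicate.

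In the FANCA-FANCG module, Fanca (ENSMUSG00000032815, chr8:123268300-123318576), the gene most often mutated in patients, had 15.15, 9.12 and 5.19 TPM. Fancg (ENSMUSG00000028453, chr4:43002343-43010506), a scaffold of tetratricopeptide repeats, had 3.47, 2.11 and 2.58 TPM. Fanca was above Fancg in each replicate, by 2.13, 2.11 and 1.01 in log2 TPM, and their ranges did not overlap. Faap20, a ubiquitin-binding partner of FANCA, had 6.59, 4.01 and 2.24 TPM, so that Fanca minus Faap20 was 1.20, 1.19 and 1.21 in log2 TPM. That near-equality is finer than the counts of Faap20 resolve, since its 37 counts in replicate 3 have a 95% exact Poisson interval from 26.1 to 51.0 for counting error.

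In the FANCC-FANCE-FANCF module, Fance (ENSMUSG00000007570, chr17:28313519-28326572), whose product contacts FANCD2, had 6.51, 3.73 and 5.01 TPM. Fancc (ENSMUSG00000021461, chr13:63285043-63497278) had 4.84, 3.26 and 3.11 TPM. Fancf (ENSMUSG00000092118, chr7:51860577-51862267), the adaptor that joins the modules, had 1.21, 1.23 and 1.12 TPM. Fance was above Fancc in each replicate with overlapping ranges, and Fancf was below both in each without overlap, by 2.06 ± 0.42 from Fance and 1.63 ± 0.33 from Fancc (SD, n = 3, log2 TPM). Fancf rests on 51, 36 and 33 counts, and the last of these has a 95% exact Poisson interval from 22.7 to 46.3. It was nonetheless well above the floor of 3 counts.

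Across all members the order by mean TPM was Fancd2, Fanci, Fancm, Fancl, Fanca, Fance, Fancc, Fancg, Fancb and Fancf. Of the 9 pairs of neighbours in this order, 3 had ranges that did not overlap over the replicates: Fancd2 with Fanci, Fancm with Fancl, and Fancb with Fancf. The other 6 pairs overlapped, and Fanci with Fancm and Fancl with Fanca also changed places between replicates. Over all 45 pairs of members, 42 kept their order in every replicate and 35 had ranges that did not overlap. The protein-coding genes nearest to Fancd2 in log2(TPM + 1) over the 3 replicates were Pcm1 and Dbf4, with root mean square differences of 0.02 and 0.04. Those nearest to Fancf were Tmem37 and Fcgrt, both at 0.02.

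The TPM values depend on the gene length used, and RSEM, whose output the tables hold, takes the mean length of a gene's isoforms weighted by their estimated shares. Of the 10 genes, Fancf has a single listed transcript, of 1691 nt, and Fancc has the most, 19. The length given for Fancm was 36.8%, 40.0% and 33.9% of its longest transcript of 7816 nt in replicates 1, 2 and 3, and that for Fanca 44.3%, 54.8% and 56.6% of 4485 nt. For Fancd2 it was 72.3%, 78.5% and 77.5% of 5512 nt. The median over the 9 members with several transcripts was 63.8%, beside 71.2% for the 9006 expressed protein-coding genes of that kind. The weighted length was thus shorter, relative to the longest transcript, for Fancm than for any other member.

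With the longest transcript as the length for every member and replicate, a choice made after seeing the data, Fancm had 4.63 ± 0.75 TPM (SD, n = 3), 35.7% of its deposited value, and moved from rank 3 to rank 5. Fancl, at 4.95 ± 0.45 TPM, and Fanca, at 4.72 ± 1.79 TPM (SD, n = 3), then stood beside it, and Fancb moved from rank 9 to rank 7 at 2.20 ± 0.40 TPM. Fancd2 at 12.9 ± 1.97 TPM and Fanci at 9.88 ± 1.16 TPM (SD, n = 3) remained the highest and Fancf the lowest. The place of Fancm beside the ID2 pair thus rested on the isoform lengths, while the core complex lay below the pair with either length: the difference was -2.27 ± 0.06 (SD, n = 3) with the longest transcripts.

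**Figure D2:**
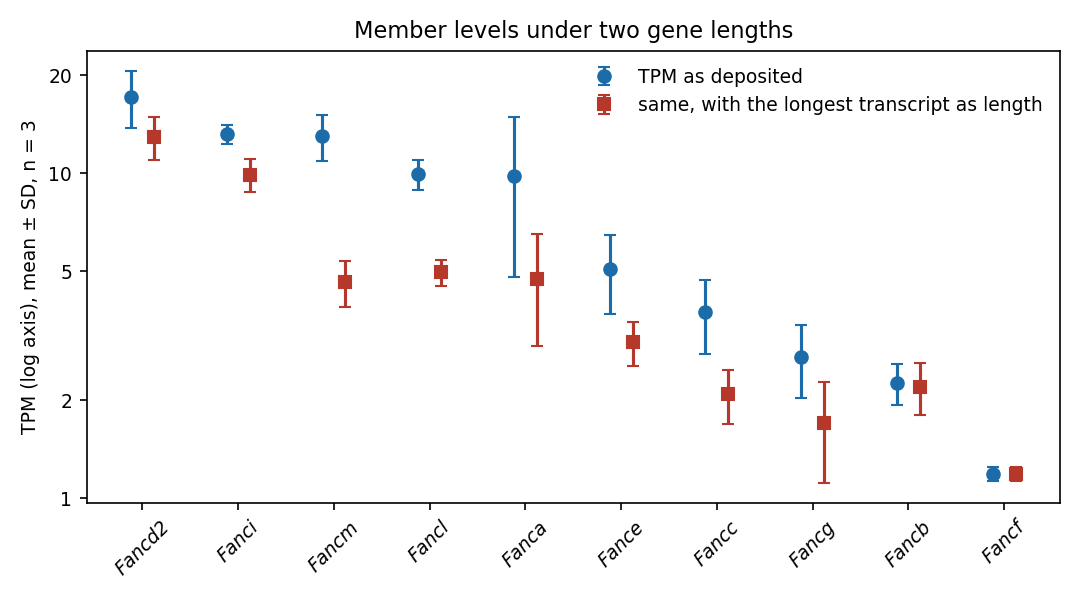
Mean TPM with SD over 3 replicates (log axis) for each gene, as deposited (circles) and with the gene's longest listed transcript as its length (squares). Fancm drops to 4.63 TPM, beside Fancl and Fanca, while Fancf, with a single transcript, stays at 1.19 TPM.

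Variation between replicates was then examined with the scaling suited to it. In TPM, replicate 1 was highest for 8 of the 10 members, as it was for 82.8% of the 12577 genes tested below. In CPM after TMM scaling, a normalization that takes most genes to be equal between libraries, replicate 3 was highest for 7 of 10 members, beside 40.6% of genes tested. Replicate 1 was highest in both units for Fanca and Fancg, while for the other 8 members the highest replicate differed between the units. Between replicates 1 and 3 the scale of TPM itself, shared by all genes, contributed 0.47 of the log2 difference.

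Fanca differed most in TPM. Its log2 TPM was higher in replicate 1 than in replicate 3 by 1.55, of which 0.70 lay in its CPM, 0.38 in its effective length and 0.47 in the library scale. In TMM-scaled CPM Fanca had 63.2, 59.9 and 44.4 in replicates 1, 2 and 3, so replicate 3 was lowest by this measure too. Its deviation from its own mean in replicate 3 was -0.31 (log2), where the median of 500 genes of similar length was 0.00. For Fancg the parts had opposite signs between replicates 1 and 3, with 0.54 from counts and -0.58 from effective length. Fancg and Fanca were the members whose TMM-scaled counts were lowest in replicate 3.

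**Figure D3:**
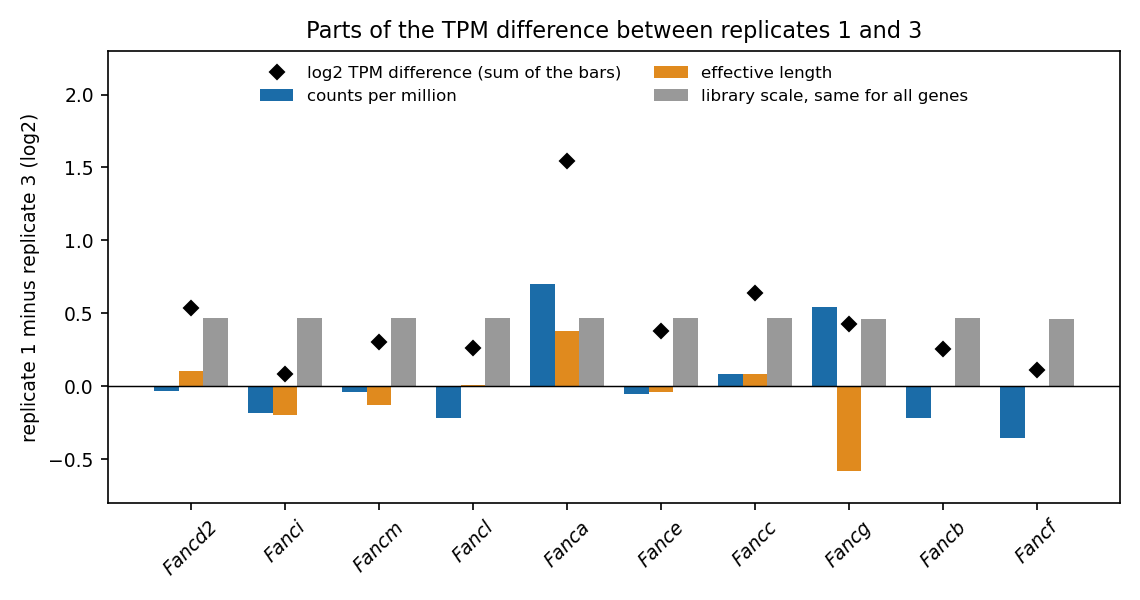
For each gene, the log2 difference of replicate 1 minus replicate 3 in TPM (diamonds) and its 3 additive parts (bars). The library scale is shared by every gene (0.46 or 0.47 after rounding of the tables), and Fanca has the largest difference, 1.55.

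No member was called as varying between replicates. With edgeR's goodness-of-fit test over 12577 genes, 0 of the 10 members varied beyond the trend at a Benjamini-Hochberg adjusted p under 0.05, where 1.84% of all genes tested did. At an unadjusted p under 0.05 there were also 0 of 10, beside 6.96% of genes, and the lowest unadjusted p was 0.253, for Fanca. At these shares fewer than 1 of 10 genes would be called, so the count does not set the members apart. With DESeq2 size factors in place of TMM, 0 members passed, beside 231 of all 12577 genes tested. The coefficient of variation of TMM-scaled counts ran from 6.09% for Fancc to 22.0% for Fancb, and its median was 13.2% over the members and 12.7% over genes tested. Fancb had 16.6, 14.4 and 21.9 TMM-scaled CPM.

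Several members share their locus with another gene. The labels name a strand-aware kit, but the strand setting of the counting is not given in the sources used here, so reads in exons shared with a gene on the opposite strand may be counted for either. Of the 8 members overlapped by another annotated gene, 5 shared exon bases with a gene at a mean of at least 1 TPM. Fanci shared 16.0% of its exon bases with Polg, the catalytic subunit of the mitochondrial DNA polymerase, at 13.6 ± 4.82 TPM (SD, n = 3). Fancf shared 15.0% with Gas2 at 1.02 ± 0.29 TPM, and Fancl 13.7% with Vrk2, a protein kinase, at 3.04 ± 0.84 TPM (SD, n = 3). Fanca shared 10.5% with the zinc finger gene Zfp276 at 1.14 ± 0.20 TPM, and Fancc 2.21% with 2010111I01Rik at 5.91 ± 1.55 TPM (SD, n = 3). The estimated counts of all 10 members were whole numbers in every replicate. Those of Polg, Gas2, Vrk2, Zfp276 and 2010111I01Rik were whole numbers as well. Estimated counts divide reads that match several genes, and how reads in the shared exons were assigned was not tested.

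Fanca also lies wholly within Gm20388, a gene model on the opposite strand with which it shares 0 exon bases. Gm20388 had 569.3, 332.5 and 51.9 estimated counts in replicates 1, 2 and 3, and 5.50, 4.60 and 0.72 TPM. Replicate 3 was thus the lowest library for both genes, and the part of Gm20388 in the values of Fanca was not tested.

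Of the 10 members, 4 have a gene that starts on the opposite strand within 1000 bp of their own start. Emc3, a subunit of the endoplasmic reticulum membrane complex, starts 30 bp from Fancd2 and had 13.05, 10.69 and 9.29 TPM, below Fancd2 in each replicate. Mospd2, a membrane protein of the endoplasmic reticulum, starts 217 bp from Fancb, across the stretch shown above, and had 6.12, 5.30 and 3.55 TPM, above Fancb in each replicate. Gas2, a cytoskeletal protein, starts 252 bp from Fancf inside its body, and its 1.34, 0.92 and 0.79 TPM overlapped the range of Fancf. Gm47870, which starts 712 bp from Fancm, had 0 counts in every replicate.

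The rest of the pathway was read from a list of 28 genes. All 28 had a mean of at least 1 TPM, from 1.31 TPM for Fan1, a nuclease recruited by ubiquitinated FANCD2, to 80.8 TPM for Adh5, which removes formaldehyde. In the edgeR goodness-of-fit test 0 of 28 varied between replicates at the adjusted threshold or at an unadjusted p under 0.05, beside the same 1.84% and 6.96% of all genes tested, and the lowest unadjusted p was 0.131, for Cenps. Their median log2(TPM + 1) was 2.68 ± 0.39 (SD, n = 3), beside 2.87 for the members.

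By role, the 4 genes of the ubiquitin steps lay near the ID2 pair. Ube2t, the conjugating enzyme that works with FANCL, had 13.57, 11.25 and 8.50 TPM, and Fancl minus Ube2t was -0.14 ± 0.21 (SD, n = 3) in log2 TPM, with Fancl lower in 2 of 3 replicates. Usp1, the enzyme that removes ubiquitin from FANCD2, had 14.2 ± 1.64 TPM and its activating partner Wdr48 9.71 ± 0.44 TPM (SD, n = 3). Rfwd3, a ubiquitin ligase acting on RPA, had 16.5 ± 2.78 TPM (SD, n = 3). The substrates, the ligase subunit, the conjugating enzyme and the deubiquitinase were therefore all at means between 9.71 and 17.2 TPM as deposited. This range depends on the isoform lengths: with the longest transcripts Fancd2 had 12.9 TPM and Fancl 4.95 TPM. The length given for Ube2t was 36.6%, 35.7% and 36.0% of its longest transcript of 3244 nt in replicates 1, 2 and 3. Its level with that transcript was not tested.

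The 5 partners of the core complex and anchor ran from 1.50 TPM (Faap100) to 9.72 TPM (Cenpx). Faap24, which binds FANCM, had 2.27, 1.70 and 1.05 TPM, below Fancm by 3.01 ± 0.48 (SD, n = 3) in log2 TPM. The histone-fold partners of FANCM differed, with Cenpx at 9.72 ± 2.10 TPM and Cenps at 4.52 ± 0.76 TPM (SD, n = 3). Several partners were thus as low as the lower core genes.

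The 8 nuclease genes had a median of 3.47 TPM. Ercc1 was highest at 11.2 ± 0.90 TPM, and its catalytic partner Ercc4, which unhooks the crosslink, had 2.33 ± 0.52 TPM (SD, n = 3). Slx4, the scaffold that recruits nucleases, had 4.77, 3.67 and 2.02 TPM. The 3 translesion genes were between 5.82 TPM (Rev1) and 8.98 TPM (Mad2l2). The 6 recombination genes had a median of 4.55 TPM, from Brip1, a helicase, at 2.10 ± 0.61 TPM to Brca2, a recombination mediator, at 13.1 ± 2.57 TPM (SD, n = 3). Aldh2, which removes acetaldehyde, had 26.2 ± 7.50 TPM (SD, n = 3), and with Adh5 it was above every member in deposited TPM. The length given for Aldh2 was 23.0%, 23.7% and 25.8% of its longest transcript of 3867 nt in replicates 1, 2 and 3. For Adh5 it was 42.3%, 40.8% and 39.7% of 3725 nt. Whether either ranking holds with the longest transcripts was not tested.

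**Figure D4:**
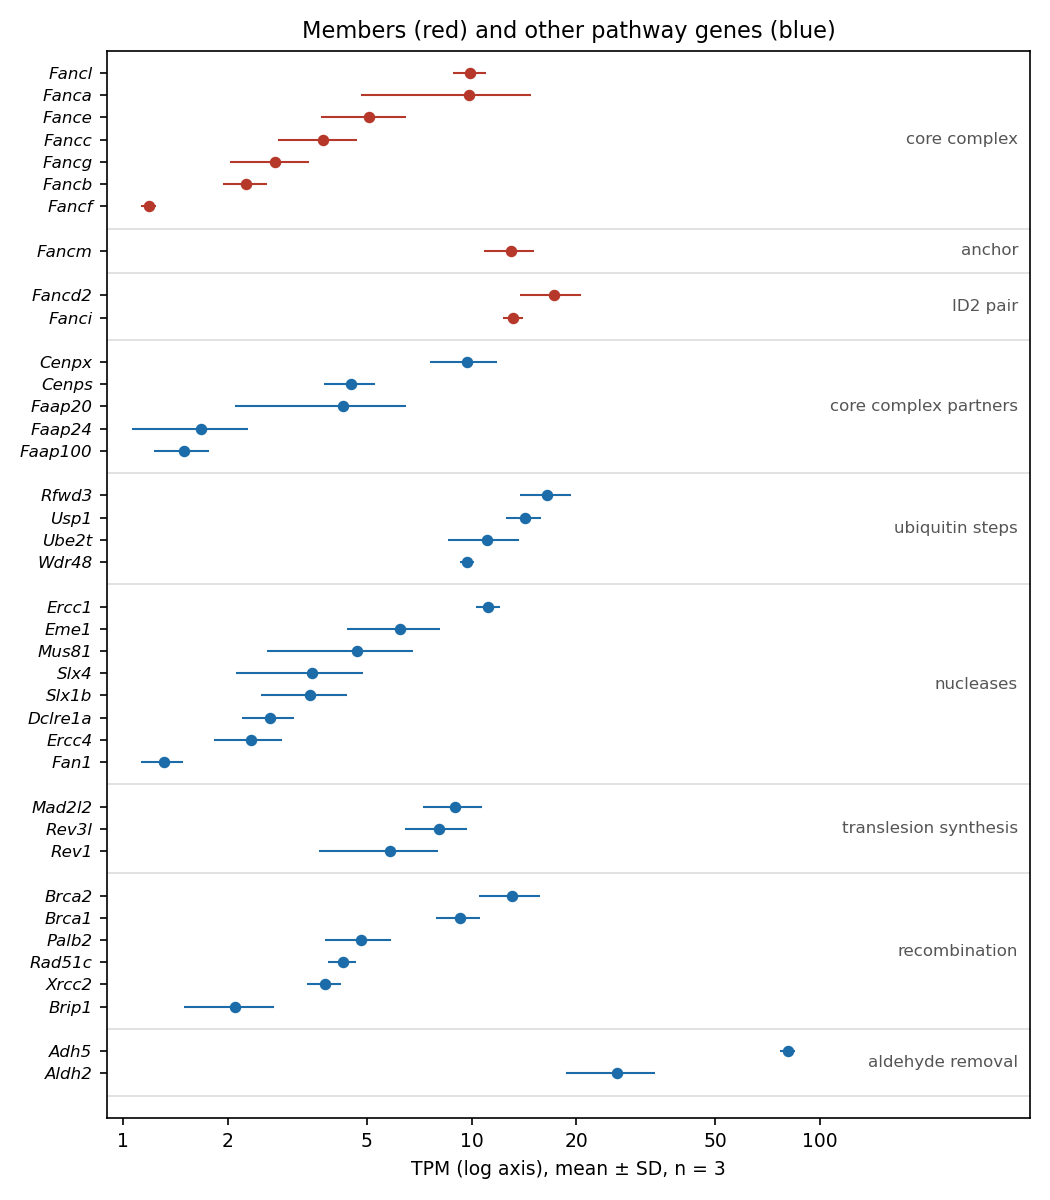
Mean TPM (log axis) with SD over 3 replicates for the 10 members (red) and the 28 other pathway genes (blue), grouped by role. The ID2 pair, Fancm and the ubiquitin steps lie between 9.71 and 17.2 TPM as deposited, and most core complex genes lie below.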

How the data were processed

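RNA-seq of E14 cells was read from 3 gene-level tables, and samples were grouped and numbered by their titles. Per the file headers, the authors deposited RSEM estimated counts, TPM and FPKM for each gene; STAR and RSEM are named without versions, and mm10 as the build, per the submitters' processing notes. Length and effective length stand beside them per the file headers and differ by 137.1, 147.3 and 132.8 nt in replicates 1, 2 and 3. The annotation release is not given in the sources used here. GENCODE vM21 (GRCm38) matched 55227 of 55487 gene IDs, and 99.8% of single-transcript genes had its length within 0.5 nt. Reads matching several genes are divided in estimated counts, and FPKM served as an alternative alone.

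The members and lists were chosen with earlier results of these data known. One gene of the pathway list is not reported here. Named genes are the members, the listed pathway genes and markers, genes overlapping a member or starting on the opposite strand within 1000 bp, and the 2 protein-coding genes nearest in log2(TPM + 1) to the highest and the lowest member. Levels were compared in TPM, and logs of a median level used a pseudocount of 1. Estimated counts were rounded for edgeR 4.0.16 (R 4.3.3): TMM, filterByExpr, an intercept-only design, trended dispersion and the goodness-of-fit test, with Benjamini-Hochberg adjustment over 12577 genes; the procedure was tested on simulated data. A floor of 3 counts is 0.263, 0.464 and 0.518 CPM, and intervals and floors reflect counting error alone, because PCR duplicates do not represent separate molecules. Size factors came from DESeq2 1.42.0. Tables were handled with pandas 2.3.3 in Python 3.11.15, Poisson intervals computed with scipy 1.17.1 and plots drawn with matplotlib 3.10.9. Alternatives changed the replicates, unit, length, pseudocount, filter, scaling and length correction.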

Additional observations from a re-analysis of the deposited data

How the results depend on the processing

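Across 8 results there were 54 alternative values: 49 were planned, and 5, those with the longest transcript, were chosen after seeing the data. None of the 54 reversed a direction, and 12 moved a value. All 10 members kept a mean of at least 1 in each unit tried and with the longest transcript. All 28 pathway genes did so in each unit tried, but the longest transcript was not tried for them. The median log2 level of the members became 4.18 when genes of effective length under 100 nt were left out of the TPM total, 4.23 in FPKM, 4.77 in CPM and 2.18 with the longest transcript; each replaces the scale or the length, by construction. The range of the members became 5.23 in CPM, which keeps length in the value, and 3.43 with the longest transcript. The number of all genes varying between replicates, 232 of 12577, was lower when 1 replicate was left out. It was 63 of 13302 without replicate 2, 89 of 12558 without replicate 1 and 93 of 13608 without replicate 3. The biological coefficient of variation that edgeR estimated over all genes was 0.162 with all replicates. It was 0.206 without replicate 2, 0.175 without replicate 1 and 0.0906 without replicate 3. The reason for the lower numbers was not tested. Members varying stayed at 0 in all 6 alternatives, where the lowest unadjusted p was 0.118 with the length correction. Over all genes, 231 of 12577 were called with DESeq2 size factors and 187 of 12577 with the length correction. With no filter beyond 1 count in total, 289 of 24217 were called. At such shares fewer than 1 of 10 genes would be called, so the 0 does not set the members apart. The ID2 difference ran from -0.63 in CPM to -0.26 without replicate 1. The difference of core complex minus ID2 pair became -3.16 in CPM and -2.27 with the longest transcript, and was from -2.13 to -1.97 when 1 replicate was left out. No paired analysis was possible because the tables hold 1 group, so there is no other group in which a replicate number could have a partner. Depth limits Fancf most, with 33 counts in replicate 3.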
